A study of Sus scrofa with 15 samples.

Results

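NQO1, CYP1A1, CYP1A2, AHR, AKR1CL1 and HMOX1 belong to the inducible detoxification system of the kidney, and their transcripts were followed in 15 pig kidneys 72 hours after warm ischemia. These 6 genes were matched to probes through the RefSeq transcript that the array lists for each probe. Of the 6 genes, 5 had a probe, with 12 probes in all out of 43603 on the array. AHR could not be assigned to a probe in this way, and its level is not analysed here. NQO1, CYP1A1 and AKR1CL1 had been chosen by measured values, namely their lower signal in the preconditioned groups than in the control group on these same arrays. Their differences from the control group are therefore described without a test. CYP1A2, AHR and HMOX1 had been added as related genes.

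All animals were female Yorkshire pigs, 20 weeks old, each reduced to a single kidney by left nephrectomy 1 week before the experiment. The 5 control pigs underwent 90 minutes of warm ischemia of the right kidney without ischemic preconditioning (IPC). The 5 rIPCe pigs received remote IPC, in which blood flow through the iliac artery on the right side was stopped for 10 minutes and restored for 10 minutes in 2 cycles, just before the same ischemia, and the 5 rIPCl pigs received it 24 hours before. Every group had thus undergone nephrectomy, anesthesia and ischemia, and no kidney without ischemia was compared. In whole kidney RNA, fewer cells of a type and less RNA per cell cannot be told apart.

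AHR is a receptor in the cytoplasm that enters the nucleus after binding planar aromatic compounds and switches on CYP1A1 and CYP1A2, monooxygenases that oxidize such compounds. NQO1, a flavoprotein that reduces quinones by transferring a pair of electrons at once, is induced both by AHR and by the transcription factor NRF2, which KEAP1 holds inactive until oxidants or electrophiles modify it. HMOX1, which breaks down heme, is another NRF2 target. AKR1CL1 belongs to the aldo-keto reductases, which reduce carbonyl groups with NADPH.

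Each kidney was hybridized to 1 single-colour array. Values are log2 signals after quantile normalization, so that a difference of 1 is a 2-fold difference, and the level of one probe cannot be set against that of another. The share of spots well above background by the scanner software moved with the groups, from 62.2% to 69.5% on control arrays, from 67.4% to 73.9% on rIPCe arrays and from 71.8% to 74.2% on rIPCl arrays, so that control and rIPCl did not overlap. Its part in the differences between groups was not tested. All 13 measured marker genes of the proximal tubule were well above background on every array. The mean log2 signal of these markers ranged from 12.74 to 13.74 in the control group, from 12.60 to 13.53 in rIPCe and from 12.18 to 13.46 in rIPCl. For 6 macrophage markers the ranges were 10.27 to 11.63, 10.75 to 11.62 and 11.00 to 12.19. For 5 markers of tubular injury they were 11.12 to 13.46, 11.81 to 14.01 and 13.00 to 13.78. One of these injury markers, SOX9, was well above background on only 1 control array, 4 rIPCe arrays and 5 rIPCl arrays. The arrays came from 4 slides. Control 1 to 4 were on slide 1, control 5 and rIPCe 1 to 3 on slide 2, rIPCe 4 and 5 and rIPCl 1 on slide 3, and rIPCl 2 to 5 on slide 4, so slide and group largely coincide.

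NQO1 was lower in 4 of 5 rIPCe kidneys and in 5 of 5 rIPCl kidneys than in any control kidney. On its brightest probe, A_72_P536730, the log2 signals of the control kidneys were 12.50, 12.03, 11.95, 11.77 and 11.60. The rIPCe kidneys were at 12.56, 8.29, 9.08, 8.69 and 8.87, and the rIPCl kidneys at 9.27, 8.46, 8.40, 9.66 and 8.36. The kidney rIPCe 1 lay above every control kidney, while the other 4 rIPCe kidneys lay within the range of rIPCl or just below it. Control, rIPCe and rIPCl kidneys averaged 11.97 ± 0.34, 9.50 ± 1.74 and 8.83 ± 0.59 (SD, n = 5 each). The log2 difference from control was -3.14 (standard error 0.64) in rIPCl, which is 8.81-fold lower, and -2.47 (standard error 0.64) in rIPCe, which is 5.54-fold lower. Without rIPCe 1 the difference in rIPCe was -3.24.

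The other NQO1 probes also had all rIPCl kidneys and 4 of 5 rIPCe kidneys below every control kidney, with rIPCe 1 inside the control range. A_72_P127796 gave means of 10.61 ± 0.45, 8.32 ± 1.55 and 7.74 ± 0.48 (SD, n = 5 each) in control, rIPCe and rIPCl, and A_72_P553981 gave 9.16 ± 0.44, 6.76 ± 1.54 and 6.13 ± 0.52 (SD, n = 5 each). The kidney rIPCe 1 was at 11.09 and 9.51 on these probes, while the highest of the other rIPCe kidneys were at 7.72 and 6.32. All 3 probes were well above background on every array.

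**Figure D1:**
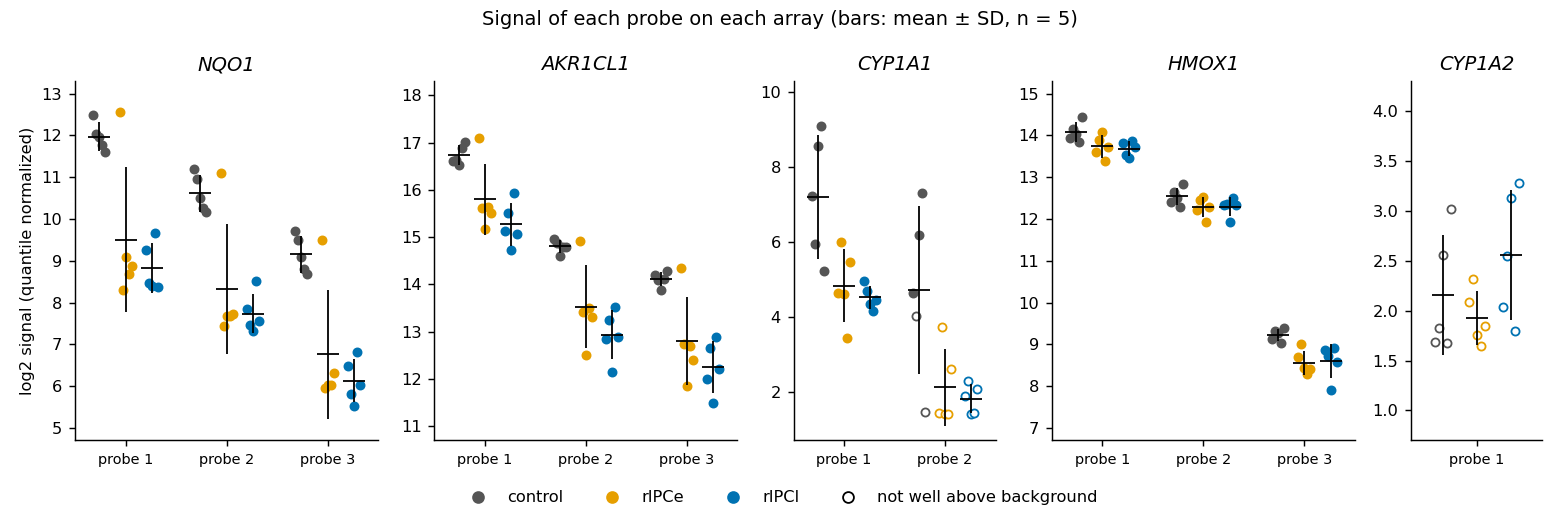
Log2 signal of every probe of the 5 measured genes on each of the 15 arrays, with probes ordered by mean signal, points coloured by group and bars giving the mean ± SD of 5 arrays; open points were not well above background. For NQO1 and AKR1CL1, 1 of 5 rIPCe kidneys lies with the control kidneys on all 3 probes, CYP1A1 spreads most widely among the control kidneys, and the groups of HMOX1 lie close together.

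AKR1CL1 divided the kidneys in the same way as NQO1. Its brightest probe, A_72_P354778, was at 16.61, 16.62, 16.52, 16.89 and 17.01 in the control kidneys, at 17.10, 15.60, 15.17, 15.64 and 15.50 in the rIPCe kidneys and at 15.13, 15.50, 14.72, 15.93 and 15.06 in the rIPCl kidneys. Again rIPCe 1 was above all control kidneys, and the other 9 preconditioned kidneys were below all of them. The control kidneys spread least. Their mean was 16.73 ± 0.21, against means of 15.80 ± 0.75 for rIPCe and 15.27 ± 0.46 for rIPCl (SD, n = 5 each). The log2 difference from control was -1.46 (standard error 0.31) in rIPCl and -0.93 (standard error 0.31) in rIPCe, or -1.25 without rIPCe 1. The other 2 probes showed larger log2 differences of -1.87 and -1.86 in rIPCl and of -1.27 and -1.31 in rIPCe. Probes of this family may share sequence with near-identical relatives, and how far they do was not tested. AKR1C1, the closest relative on the array by name, had 6 probes whose log2 differences in rIPCl ran from -1.55 to -0.08.

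CYP1A1 was lower in both preconditioned groups, but its control kidneys differed widely among themselves. Probe A_72_P223362 was at 7.22, 5.95, 8.56, 9.11 and 5.22 in the control kidneys, a range of 3.89 on the log2 scale. It was at 4.63, 6.00, 4.62, 3.43 and 5.47 in rIPCe and at 4.96, 4.70, 4.34, 4.15 and 4.44 in rIPCl. All rIPCl kidneys were below the lowest control kidney, the nearest at 4.96 against 5.22, and 3 of 5 rIPCe kidneys were. Unlike for NQO1, rIPCe 1 was not among the high kidneys. The means were 7.21 ± 1.66, 4.83 ± 0.98 and 4.52 ± 0.32 (SD, n = 5 each) in control, rIPCe and rIPCl, with log2 differences of -2.69 (standard error 0.66) in rIPCl and -2.38 (standard error 0.66) in rIPCe. Signals at this level are close to the lowest that the scanner software called well above background, which lay between 3.74 and 4.71 on control arrays, between 3.19 and 4.09 on rIPCe arrays and between 3.18 and 3.50 on rIPCl arrays. With a background correction that adds an offset to every spot (normexp), the differences were -1.33 and -1.24.

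The second CYP1A1 probe, A_72_P443804, was well above background on 3 of 5 control arrays and on no array of either preconditioned group. Its difference can therefore be given only roughly. Each preconditioned array was given the higher of its own signal and the lowest signal well above background. The control mean of 4.72 was then 2.64-fold higher than in rIPCl and 2.14-fold higher than in rIPCe. The dim arrays control 2 and control 5 kept their measured signals of 4.03 and 1.45, so these folds are not strict bounds. The measured means were 1.82 in rIPCl and 2.12 in rIPCe.

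CYP1A2, which shares its substrates in part with CYP1A1 and is best known from liver, was not well above background on any of the 15 arrays. Its probe, A_72_P440936, gave means of 2.15 ± 0.60, 1.93 ± 0.27 and 2.56 ± 0.65 (SD, n = 5 each) in control, rIPCe and rIPCl, all under the lowest signal well above background. A difference between groups could not be measured with this probe.

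HMOX1, the heme oxygenase, differed little between groups, with lower means in both preconditioned groups than in control on every probe. Probe A_72_P078091 was at 13.93, 14.15, 14.04, 13.84 and 14.44 in the control kidneys, at 13.60, 13.89, 14.08, 13.38 and 13.73 in rIPCe and at 13.82, 13.54, 13.45, 13.87 and 13.73 in rIPCl. The ranges of the control group and of each preconditioned group overlapped. Its log2 difference from control was -0.40 (95% interval -0.72 to -0.076, limma adjusted p = 0.112) for the rIPCl kidneys and -0.34 (95% interval -0.67 to -0.022, limma adjusted p = 0.327) for the rIPCe kidneys. With probe A_72_P689842 the difference was -0.24 for rIPCl (limma adjusted p = 0.303) and, for rIPCe, -0.26 (limma adjusted p = 0.432). On the dimmest probe, A_72_P622079, all 5 kidneys of both preconditioned groups were below every control kidney, with log2 differences of -0.63 for rIPCl (limma adjusted p = 0.0573) and, for rIPCe, -0.67 (limma adjusted p = 0.196). Of all probes, 6.76% had all 5 rIPCl arrays below all control arrays and 2.73% had all 5 rIPCe arrays below them. An exact permutation test of this probe gave p = 0.00794 in each comparison, two-sided, which is the smallest that 5 arrays against 5 allow and is not adjusted for the number of probes. No HMOX1 probe passed the adjustment over all probes in either comparison.

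Counted by gene on the brightest probe, 3 of the 5 measured genes were at least 2-fold lower in rIPCl than in control, where 3.23% of all probes were, and 2 of 5 were so in rIPCe, where 1.76% were. These genes had been chosen for that difference, so nothing can be read from the counts. The comparisons of rIPCe and rIPCl with the control group share its 5 arrays.

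The comparison of rIPCl with rIPCe, which had not been used to choose the genes, sets kidneys with different intervals between IPC and ischemia side by side. Slide also differed between these groups for most arrays, so the interval cannot be told apart from slide. None of the 12 probes differed after adjustment in limma, and neither did any of the 43603 probes on the array (0%), although 3.85% of them had an unadjusted p under 0.05. NQO1 had a log2 difference of -0.67 between rIPCl and rIPCe (95% interval -2.03 to 0.70, limma adjusted p = 0.979), which turned to 0.10 when rIPCe 1 was left out. For AKR1CL1 it was -0.53 (95% interval -1.21 to 0.14, limma adjusted p = 0.979), and -0.21 without rIPCe 1. CYP1A1 gave -0.31 (95% interval -1.74 to 1.11, limma adjusted p = 0.983) and HMOX1 gave -0.05 (95% interval -0.38 to 0.27, limma adjusted p = 0.987). The interval of CYP1A1 includes a 2-fold difference in either direction and those of NQO1 and AKR1CL1 include a 2-fold lower level in rIPCl, so the arrays do not show that the groups were alike.

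The kidney rIPCe 1 stood apart from its group beyond these genes. Of 1563 probes that were lower in rIPCl than in control after adjustment, it was at or above the lowest control kidney for 48.7%, while the other rIPCe kidneys were so for 9.55% to 25.7%. It carried the pattern of a control kidney for NQO1 and AKR1CL1 but not for CYP1A1 or HMOX1, since it was below every control kidney on the brighter CYP1A1 probe and on all 3 HMOX1 probes. Its mean signal over 4 distal nephron markers, 9.44, was the lowest of the 15 arrays and below the control range of 10.37 to 10.88, and rIPCe 2 was also below that range, at 9.52. Its mean was 12.85 over the proximal tubule markers, 10.75 over the macrophage markers and 12.86 over the tubular injury markers, each within the range of the control kidneys. The part of tissue composition in its values was not tested.

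Within groups, NQO1 and AKR1CL1 tended to deviate together. After each group mean was subtracted, their signals had a Pearson r of 0.79 (permutation p = 0.0568, adjusted over 10 gene pairs 0.568) and a Spearman rho of 0.625 (permutation p = 0.0471, adjusted 0.236) over the 15 arrays. Without rIPCe 1 and rIPCl 4, the 2 arrays where NQO1 deviated most, r was 0.15, so the relation rests on those arrays. NQO1 and CYP1A1 had an r of -0.07 (permutation p = 0.788, adjusted 0.856) and a rho of -0.07 (permutation p = 0.794, adjusted 0.917). No pair among the 5 genes passed the adjustment.

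**Figure D2:**
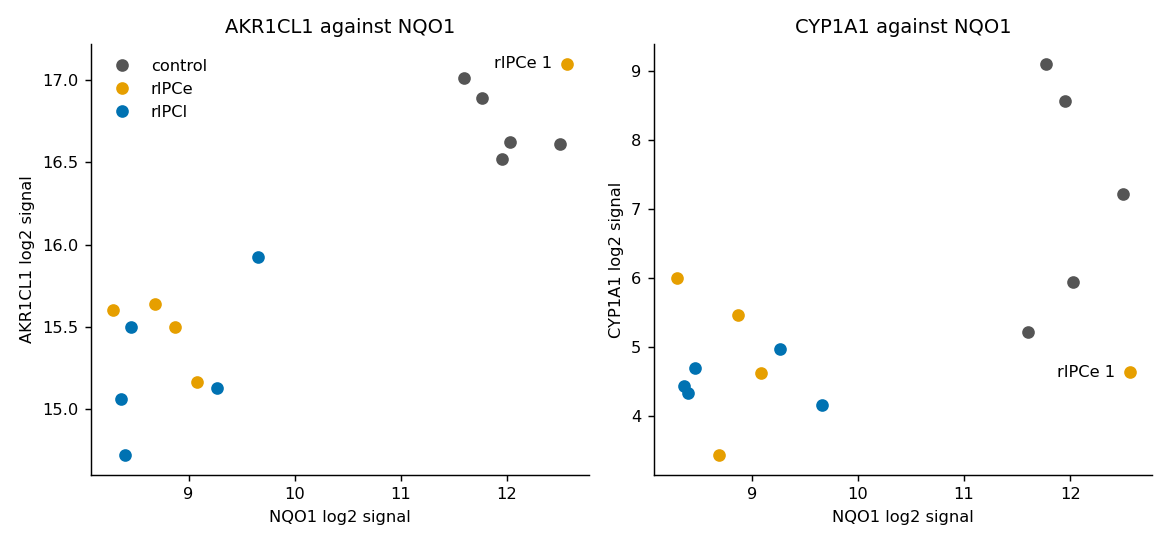
Log2 signals of AKR1CL1 (left) and CYP1A1 (right) against NQO1, brightest probe of each gene, with 1 point for each of the 15 arrays coloured by group. The array rIPCe 1 lies with the control arrays for NQO1 (12.56) and AKR1CL1 (17.10) but at 4.63 for CYP1A1, below all control arrays.

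Among 2566 other genes, the 5 whose deviations from group means were most like those of NQO1 were PSMA4, DBI, ADRA2B, TFAM and APOA4, with a Pearson r of 0.91, 0.90, 0.88, 0.87 and 0.87 over 15 arrays. Spearman's rho was lower, from 0.68 to 0.78, and without rIPCe 1 and rIPCl 4 r was 0.74, 0.73, 0.44, 0.68 and 0.67. DBI, the acyl-CoA binding protein, was also lower in rIPCl (log2 difference -1.09, limma adjusted p = 0.0313), as was the apolipoprotein APOA4 (-4.70, limma adjusted p = 0.0156), while PSMA4, a proteasome subunit, had -0.38 (limma adjusted p = 0.178), TFAM, a mitochondrial transcription factor, -0.43 (limma adjusted p = 0.149) and ADRA2B, an adrenergic receptor, 0.30 (limma adjusted p = 0.65). For CYP1A1 the nearest 5 were CNPY2, KLF1, FADS1, SIRT4 and MIF, with r between 0.76 and 0.82 and rho between 0.62 and 0.73, and between 0.59 and 0.66 without control 4 and control 5. Their log2 differences from control in rIPCl lay between -0.23 and 0.41, and none passed the adjustment. These genes were picked as the highest of many correlations, which are given as a description.

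Slide and group could be separated for a few arrays only. Slide 2 held rIPCe 1 to 3 beside control 5, and on it NQO1 had a log2 difference of -1.62 between rIPCe and control, AKR1CL1 of -1.05, HMOX1 of -0.58 and CYP1A1 of -0.14. Control 5 had the lowest CYP1A1 signal of the control kidneys. Slide 3 held rIPCl 1 beside rIPCe 4 and 5, with a log2 difference between rIPCl and rIPCe of 0.49 for NQO1, -0.44 for AKR1CL1, 0.27 for HMOX1 and 0.51 for CYP1A1. With slide as a fixed block, a model in which rIPCl and control are linked only through slides 2 and 3, the difference between rIPCl and control was -1.13 for NQO1, -1.49 for AKR1CL1, -0.31 for HMOX1 and 0.38 for CYP1A1. When rIPCe 1 was also left out, it was -2.42 for NQO1, -2.06 for AKR1CL1 and 0.60 for CYP1A1. In this model the difference between rIPCl and control only joins the differences on slides 2 and 3. Control 5 and rIPCl 1 are the only control and rIPCl arrays that set it. On these arrays AKR1CL1 and NQO1 had the direction of their difference over all arrays, and CYP1A1 in rIPCl did not. The 4 control kidneys with more CYP1A1 signal than control 5 are the 4 that the layout placed on slide 1. A difference between slides cannot be told apart here from one between kidneys.

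**Figure D3:**
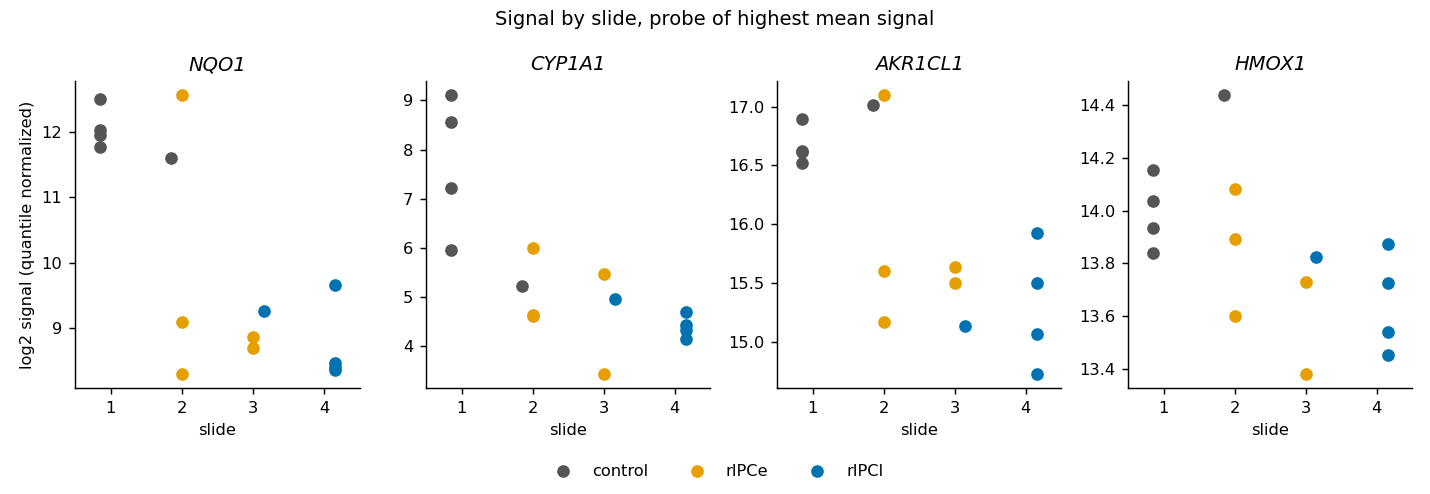
Log2 signal of the brightest probe of NQO1, CYP1A1, AKR1CL1 and HMOX1 by slide, with 1 point per array coloured by group. On slide 2 the control array lies at 11.60 for NQO1 with 2 of 3 rIPCe arrays far below it, but at 5.22 for CYP1A1 with a rIPCe array on either side.

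The genes that work beside these enzymes were examined through lists for AHR signalling, the NRF2 pathway, quinone and carbonyl reduction, oxidation (phase I), conjugation (phase II) and heme and iron handling. Together the lists name 134 genes, and 58 other than the 6 described above had a probe. After adjustment over all probes, 7 of the 58 were lower in rIPCl than in control and 0 were higher, where 3.58% of all probes were lower and 2.69% higher. An unadjusted p under 0.05 was found for 33 of the 58 genes and for 26.8% of all probes. The median log2 difference of the 58 genes was -0.42, against -0.033 over all probes. The 58 genes are each given by their brightest probe, while all probes include dim probes and probes without a symbol. The sets thus differ in more than their function. These lists were drawn up with earlier results of the arrays known, so their direction is not independent evidence. In rIPCe 0 of the 58 passed the adjustment in limma, as did 1 of all probes (0.00229%), and 11 had an unadjusted p under 0.05, as did 14.1% of all probes. The methods' t-test also called 0. The median log2 difference in rIPCe was -0.28, against -0.0091 over all probes.

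The count of 7 depended on single arrays and on the slide. Counted in either direction, it was 0 without rIPCl 4 or without rIPCl 5 and 1 without control 2 or rIPCl 3. It was 2 without control 3, control 4 or rIPCl 2, and 3 without rIPCe 4. None of the 7 genes passed the adjustment with slide as a fixed block, where the only gene that did was HP, haptoglobin. Its log2 difference was -3.17 with the block, against -0.51 (limma adjusted p = 0.54) without it. With the block, control 5 is the only control array that sets this difference. For HP the control kidneys ranged from 7.29 to 10.63, with a mean of 8.22, and control 5 was the highest. The HP call thus rests on 1 high control array. HP was named after its values were seen. The differences themselves did not all shrink with the block. They were larger for EPHX1 (-1.45 against -0.75), MAOA (-1.85 against -1.19), FMO1 (-1.48 against -1.24) and SULT1A3 (-1.50 against -0.85), smaller for GSTO1 (-0.68 against -1.45) and MGST1 (-0.56 against -0.81), and 0.0067 against -0.88 for TXN. None of these had a limma adjusted p under 0.231 with the block. With slide as a random block 0 genes passed. The mean of rIPCl was below that of control for 47 of the 58 genes, whatever the size of the difference. The share of all probes with a lower mean was not counted, and their median log2 difference was -0.033. This count and the counts of lower means by list below are therefore a description only.

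In the NRF2 pathway all 8 measured genes had a lower mean in rIPCl, with a median log2 difference of -0.33, and 1 of them passed the adjustment. That gene was TXN, thioredoxin, which fell from 16.03 ± 0.23 (SD, n = 5) in control to 15.15 ± 0.12 (SD, n = 5) in rIPCl, a log2 difference of -0.88 (limma adjusted p = 0.0314). In rIPCe it was at 15.40 ± 0.50 (SD, n = 5), with rIPCe 1 at 16.23 inside the control range and the other 4 kidneys between 14.98 and 15.50, below it. TXNRD1, the reductase that recharges thioredoxin, had a log2 difference of -1.01 in rIPCl (limma adjusted p = 0.0644) and its 4 probes ran from -1.11 to -0.97. KEAP1, the inhibitor of NRF2, had a log2 difference of -0.25 (limma adjusted p = 0.302), and GCLM, the modifier subunit of the enzyme that starts glutathione synthesis, had -0.07 (limma adjusted p = 0.873). NFE2L2, which encodes NRF2, GCLC and SRXN1 had no assigned probe.

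Quinone and carbonyl reduction had 10 other measured genes, of which 9 had a lower mean in rIPCl (median log2 difference -0.43) and 1, EPHX1, passed the adjustment. EPHX1, the microsomal epoxide hydrolase, fell from 14.35 ± 0.30 (SD, n = 5) in control to 13.59 ± 0.28 (SD, n = 5) in rIPCl (log2 difference -0.75, limma adjusted p = 0.0456). The gene on the other side was AKR1B1, aldose reductase, with a log2 difference of 0.71 in rIPCl (limma adjusted p = 0.0559). AKR1B1 thus had the opposite sign to AKR1CL1, although the difference between the genes was not tested. In the AHR list 3 other genes had a probe, 2 of them with a higher mean in rIPCl (median log2 difference 0.38). None passed the adjustment in limma, and 2, ARNT2 and HSP90AB1, had an unadjusted p under 0.05. ARNT2, a partner of AHR-type receptors, had a log2 difference of 0.70 (limma adjusted p = 0.132). The chaperone HSP90AB1 had 0.38 (limma adjusted p = 0.111) and was named after its values were seen. The chaperone HSP90AA1, the gene with a lower mean, had -0.43 (limma adjusted p = 0.264).

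Of 13 other phase I genes, 11 had a lower mean in rIPCl (median log2 difference -0.63) and 2 passed the adjustment. MAOA, which oxidizes monoamines, fell from 14.66 ± 0.43 (SD, n = 5) to 13.46 ± 0.36 (SD, n = 5), a log2 difference of -1.19 (limma adjusted p = 0.0255). FMO1, a flavin monooxygenase, fell from 15.59 ± 0.88 (SD, n = 5) to 14.36 ± 0.37 (SD, n = 5), a log2 difference of -1.24 (limma adjusted p = 0.0451). In rIPCe the differences were -0.64 for MAOA (limma adjusted p = 0.283) and -0.78 for FMO1 (limma adjusted p = 0.322). MAOA and FMO1 are also abundant in proximal tubule cells, whose 13 markers had a median log2 difference of -0.62 in rIPCl, with 1 passing the adjustment. The 6 macrophage markers had a median of 1.17, with 3 passing, and the 5 markers of tubular injury had a median of 1.04, with 1 passing, CLU, at 2.02 (limma adjusted p = 0.0277). The part of cell composition in these differences was not tested.

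Phase II conjugation had 12 other genes with a probe, 8 of them with a lower mean in rIPCl, and 3 passed the adjustment. GSTO1, an omega class glutathione transferase, fell from 16.69 ± 0.16 (SD, n = 5) to 15.25 ± 0.35 (SD, n = 5), with a log2 difference of -1.45 (limma adjusted p = 0.0195). In rIPCe GSTO1 was at 15.64 ± 0.59 (SD, n = 5), and as for NQO1 the kidney rIPCe 1, at 16.65, lay within the control range while the other 4 lay between 15.19 and 15.65, under it. The microsomal transferase MGST1 fell by 0.81 on the log2 scale (limma adjusted p = 0.0466) and the sulfotransferase SULT1A3, which the list carried as SULT1A1, fell by 0.85 (limma adjusted p = 0.0442). Of the 7 genes lower in rIPCl, all had rIPCe 1 at or above the lowest control kidney, and 3 of them, TXN, MAOA and GSTO1, had it above all other rIPCe kidneys. For TXN and GSTO1 the other 4 rIPCe kidneys were all below every control kidney, but only 3 were for MAOA and FMO1, 2 for EPHX1 and MGST1 and 1 for SULT1A3, so a level within the control range was not particular to rIPCe 1 for those genes.

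When rIPCe 1 was left out, 3 of the 58 genes passed as lower in rIPCe than in control, against 0 with all arrays. Of all probes, 0.612% then passed in either direction. The genes were GSTO1 (log2 difference -1.31), TXN (-0.84) and TXNRD1 (-1.08). For all 3, rIPCe 1 was inside the control range and the other 4 rIPCe kidneys were below it. This array was singled out after its values were seen, and leaving it out favours these genes. The differences are therefore a description and not a test.

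**Figure D4:**
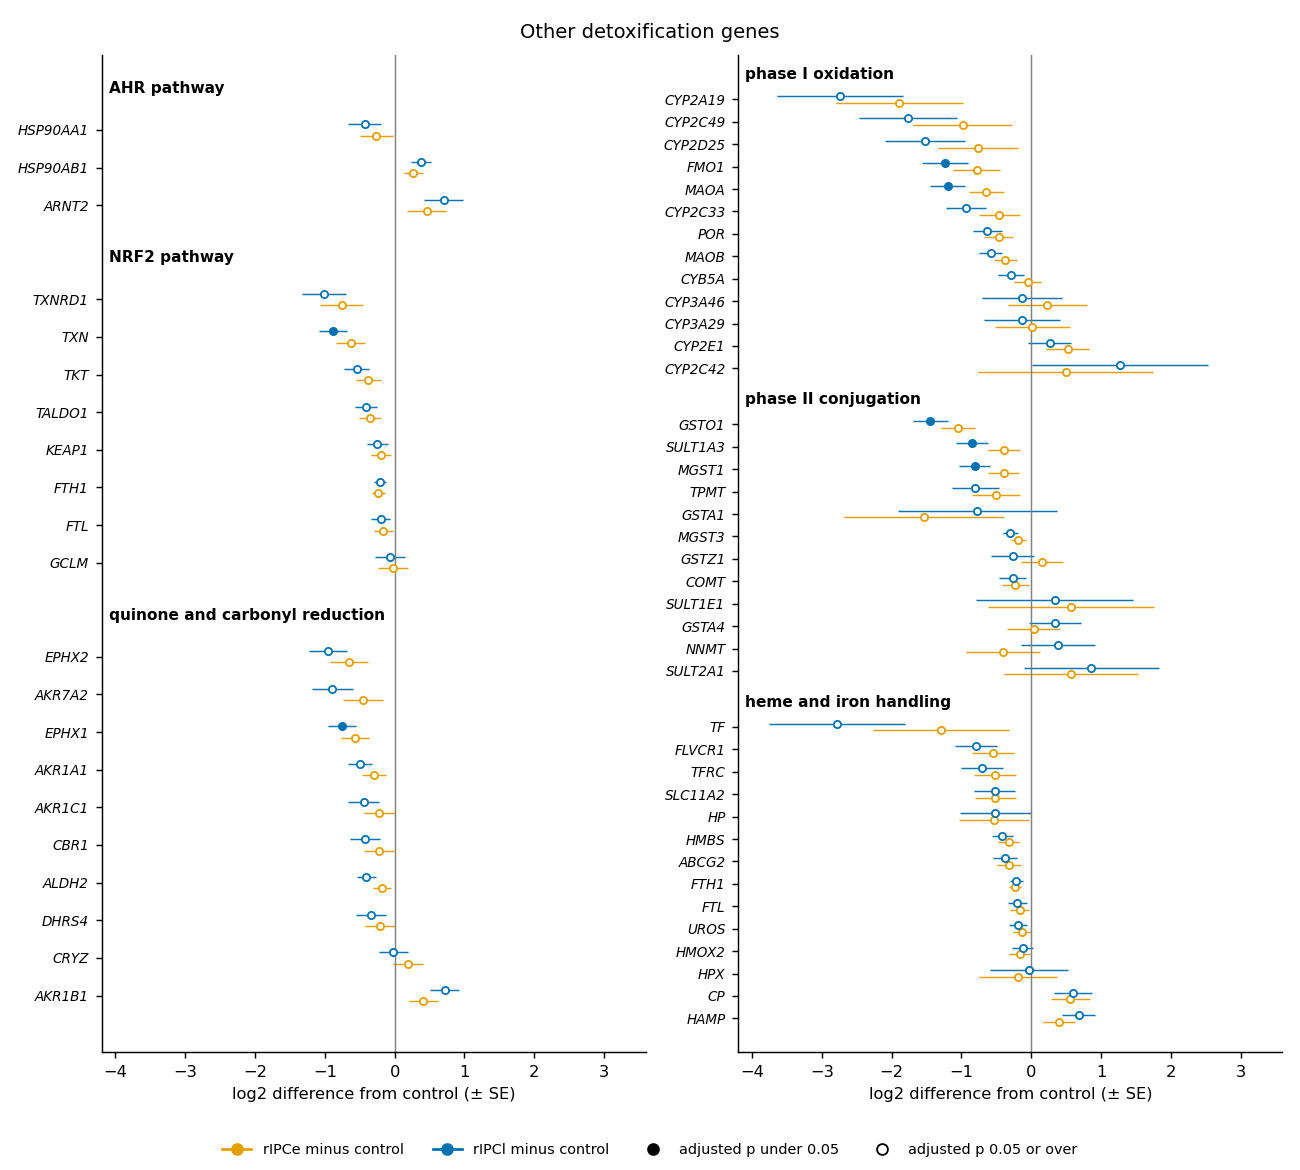
Log2 difference from control of 58 other detoxification genes in rIPCe and rIPCl, brightest probe of each gene, with the standard error from limma; genes in 2 lists are drawn in both and filled points had an adjusted p under 0.05. The 7 filled points are all rIPCl and all lie left of 0.

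The heme and iron list had 14 other measured genes, 12 of them with a lower mean in rIPCl (median log2 difference -0.29), and none passed the adjustment in limma, while 8 had an unadjusted p under 0.05. TF, transferrin, had the largest difference, -2.78 (limma adjusted p = 0.0916), but its rIPCl kidneys ranged from 6.21 to 12.86. FLVCR1, a heme exporter, had -0.79 (limma adjusted p = 0.115) and was well above background on 3 control, 2 rIPCe and 4 rIPCl arrays. HMOX2, the constitutive heme oxygenase, had -0.12 (limma adjusted p = 0.629). The biliverdin reductases BLVRA and BLVRB, which act after heme oxygenase, had no assigned probe.

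Between rIPCl and rIPCe, 0 of the 58 list genes passed the adjustment in limma, 0 by the methods' t-test, and 1 had an unadjusted p under 0.05. The median log2 difference was -0.17, against -0.012 over all probes.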

How the data were processed

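Kidney RNA from 15 pigs was hybridized to single-colour Agilent porcine arrays, 1 per pig. The authors deposited scanner output of Agilent Feature Extraction 11.0.1.1 and a value table, and both hold linear intensities. Per the file headers, background and spatial trends had been removed array by array, without normalization across arrays. Averaging the processed signals of the spots gave the values of the table for each of 43603 probes (relative tolerance 0.001). Control spots (of 45220) and outlier spots (1 to 70 per array) were left out, log2 signals were normalized by quantiles across the arrays, and repeated spots were averaged by probe. Median spot and background signals were used for the normexp alternative only. The remaining columns deposited per spot and used here are flags of 0 or 1 (other columns). No spot was saturated. Probes were named through RefSeq accessions (Sscrofa11.1), which gave 6686 probes and 3020 genes a symbol. Each gene was represented by its brightest probe on average.

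Group means were estimated for every probe in R 4.3.3 with limma 3.58.1 (lmFit, eBayes), with Benjamini-Hochberg adjustment over all probes, and the pipeline was tested on simulated data. Permutations were 100000 within groups for pairs of genes, and exact over 252 assignments for single probes. The number of arrays limits the precision. Replicates are separate pigs. The genes and lists were chosen with earlier results of these data known. Named are the measured genes of the group, pathway genes fixed by name, list genes past the adjustment (at most 5 per list) or otherwise the 2 of largest difference, and the 5 genes most like NQO1 and CYP1A1. CYP1A2 is given without its test because it was below background. The normexp alternative (offset 50) used the median signal, as the files hold no mean signal. Alternatives were the 75th percentile, normexp, the deposited table, no dim probes, outlier spots kept, 10 arrays, replicate and slide blocks, the mean of a gene's probes, each array left out and the methods' t-test.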

Additional observations from a re-analysis of the deposited data

Results flagged for a closer look

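Among 36 sets of 5 arrays (12 probes in 3 groups), 5 held an array far from the others by Dixon's criterion, which chance meets in about 1 of 20 sets, and the probes of a gene are not independent. The array rIPCe 1 was far above the other rIPCe arrays for all 3 NQO1 probes, at 12.56, 11.09 and 9.51 where the next highest rIPCe arrays were at 9.08, 7.72 and 6.32. It was likewise high for the AKR1CL1 probe A_72_P354778, at 17.10 with the next at 15.64. The array rIPCl 3 was low for the HMOX1 probe A_72_P689842, at 11.92 with the next at 12.34.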

How the results depend on the processing

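AKR1CL1, and NQO1 against control, kept their direction under every alternative run. With slide as a fixed block the log2 difference of NQO1 was -1.13 in rIPCl versus control and 0.49 in rIPCl versus rIPCe (0.49 also without rIPCe 1). That of CYP1A1 was 0.38 in rIPCl, -0.14 in rIPCe and 0.51 in rIPCl versus rIPCe, or 0.60, 0.088 and 0.51 without rIPCe 1, and with normexp it was -1.33 in rIPCl and -1.24 in rIPCe. That of HMOX1 in rIPCl versus rIPCe was 0.27 with the slide block, with and without rIPCe 1, and 0.045 with a random block, and that of CYP1A2 in rIPCl versus control was -0.67, or -0.69 without rIPCe 1. In rIPCl 7 list genes passed the adjustment, all of them lower. The list counts under the alternatives take genes that passed in either direction and were not split by direction. In rIPCl they were 15 with the 75th percentile (which moved the median of all probes to -0.11), 14 with normexp and 12 without dim probes. The methods' t-test gave 4. The count was 1 (HP, not one of the 7) with the slide block, 1 also without rIPCe 1, and 0 with a random slide block. In rIPCe 1 list gene, again HP, passed with the slide block, and 1 also when rIPCe 1 was left out. In both comparisons the HP call rests on control 5, the only control array on slide 2. When single arrays were left out, the list counts ran from 0 to 9 in rIPCl and from 0 to 3 in rIPCe. The difference between rIPCl and rIPCe then ran from -0.97 to 0.10 for NQO1 and from -0.14 to 0.033 for HMOX1. Replicate numbers did not pair the pigs (correlations of same-numbered arrays -0.27 to 0.07), and with the replicate block 5 list genes passed in rIPCl and the difference of NQO1 remained -3.14. Over all probes, 1563 were lower and 1173 higher in rIPCl, against 5575 and 2153 with the 75th percentile. Effects of slide cannot be told apart from those of group for most arrays. With slide as a fixed block, the difference between rIPCl and control has control 5 and rIPCl 1 as the only arrays of those groups. Signal over background limits CYP1A1 and CYP1A2. The slide block without rIPCe 1 was chosen after seeing the data. The causes of these changes were not tested.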
